A study of Homo sapiens with 4 samples.

Results

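The transcripts of 10 genes, the E2F transcription factors E2F1, E2F2, E2F3, E2F4, E2F5, E2F7 and E2F8 and the retinoblastoma family genes RB1, RBL1 and RBL2, were followed in LNCaP and PC3 prostate cancer cells exposed to ATO. Members were all gene features of the array that carry one of these names, which gave 13 features of 34127 and 10 genes of 27224. LNCaP is an androgen-dependent human prostate cancer line, and PC3 is an androgen-independent one. ATO is atorvastatin, a statin that inhibits HMG-CoA reductase, the rate-limiting enzyme of mevalonate and cholesterol synthesis. Each line was measured as a control with no treatment and after 10 µM ATO for 24 h in the same serum-containing medium, which gave 4 groups, a control and an ATO group of each line, of 1 array each. The labels name no vehicle for the controls. The design asks whether ATO changed gene expression in each line, and whether the lines differed.

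E2F factors bind the promoters of genes needed for DNA synthesis and cell cycle entry. In resting cells, or early in G1 phase, the pocket proteins RB1, RBL1 (p107) and RBL2 (p130) bind E2F factors and hold these genes silent. Cyclin-dependent kinases phosphorylate the pocket proteins late in G1, which frees the activators E2F1, E2F2 and E2F3. E2F4 and E2F5 act mainly as repressors together with RBL1 and RBL2. E2F7 and E2F8 bind DNA without a DP partner or a pocket protein and repress E2F targets later in the cycle. Several E2F and pocket protein genes are themselves E2F targets, so the family is partly wired into its own output, and loss of RB pathway control is a common event in advanced prostate cancer.

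The promoters of the members are shown first, because several genes of the family are known E2F targets and the site that E2F factors bind can be read there. Windows of 250 bases before to 50 bases after a transcription start were taken from RefSeq (GRCh38.p14). All 10 members matched a current gene symbol, and 8 of the 10 had a window in the set used. E2F5 and E2F8 had none in this set, so their promoters were not searched. Each window was searched on both strands for 3 forms of the E2F site, TTTCCCGC, TTTGGCGC and TTTCGCGC (a form can overlap another on the opposite strand, and a window is counted once however many matches it holds). Of 35116 windows of all genes, 1.63% held the first form, 0.652% the second, 0.515% the third, and 2.74% at least 1 of them. Among the 8 members with a window, 4 held a match. Members are counted as genes, and E2F3 and RBL2 have 2 windows each. This count and the shares of windows therefore differ in unit. The 100 bases before the start of each are printed 5′ to 3′ in the direction of the gene, with the match in capitals. The E2F1 stretch lies at chr20:33686386-33686485 (minus strand), that of E2F2 at chr1:23531234-23531333 (minus strand), that of E2F3 at chr6:20401779-20401878 (plus strand) and that of RBL1 at chr20:37095998-37096097 (minus strand).
E2F1: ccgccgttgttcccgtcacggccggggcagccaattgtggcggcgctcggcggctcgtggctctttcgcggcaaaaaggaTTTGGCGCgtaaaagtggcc
E2F2: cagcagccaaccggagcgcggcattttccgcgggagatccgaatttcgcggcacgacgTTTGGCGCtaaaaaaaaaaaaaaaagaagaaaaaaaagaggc
E2F3: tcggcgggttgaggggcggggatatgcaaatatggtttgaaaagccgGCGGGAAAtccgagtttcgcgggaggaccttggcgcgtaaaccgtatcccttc
RBL1: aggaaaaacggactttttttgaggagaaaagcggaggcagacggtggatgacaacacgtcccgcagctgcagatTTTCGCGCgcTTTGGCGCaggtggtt

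The E2F1 match began 20 bases before the start and the E2F2 match 42 bases before it, both in the form TTTGGCGC. The E2F3 match was TTTCCCGC on the opposite strand, 53 bases before the start at the upstream of its 2 windows. RBL1 held a pair of matches, TTTCGCGC at 26 bases and TTTGGCGC at 16 bases before the start. No window of E2F4, E2F7, RB1 or RBL2 held any of the 3 forms, which says only that these letters are not in these windows. The CHR element TTTGAA, through which the DREAM complex acts on later cell cycle genes, was found in 1 window each of E2F3 and RBL2 and in 15.2% of all windows. A match is a description of the sequence and no evidence of binding.

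The values are spot intensities on a linear scale. For comparisons each was divided by the 75th percentile of its array and taken to log2, and differences are given as log2 ratios (a positive value is higher after ATO, or higher in PC3). A gene was represented by its brightest feature. A gene was said to rise or fall after ATO where its ratio reached 1.5-fold (0.58 on the log2 scale), and to differ between the controls at 2-fold. Because each group had 1 array, none of these differences has a replicate check, and a line on its own has no p-value. The spread available was that among the 10 copies that the array carries of 999 features. Between 618 and 669 of these had enough usable copies well above background on an array. Their median standard deviation was 0.087 to 0.10 on the log2 scale on the 4 arrays. That gives a ratio of single spots a typical standard deviation of 0.13 from this source alone. Some features, RB1 among them, were more scattered. This spread leaves out the variation between cultures. Between 48.5% and 52.9% of gene spots were well above background, no spot was saturated, and the labels of the lines held, as 5 of 5 LNCaP markers (among them KLK3 and KLK2) and 3 of 3 PC3 markers (CAV1, CD44 and VIM) were higher in the line they mark. Local background was uneven. It exceeded the median of the array by more than 25% (called bright here) at 20.9% of gene spots on the LNCaP ATO array, all of them in its lower part, and at 3.30% on the control array of that line, 13.2% on the PC3 control array and 17.1% on the array of treated PC3 cells. The 4 arrays lay at different positions of the slide, so position and group cannot be told apart.

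All 10 genes had a feature well above background on all 4 arrays. In PC3 cells, 3 of the 10 fell after ATO, namely E2F8 (2.91-fold), E2F2 (1.98-fold) and E2F1 (1.82-fold), which is 30.0% of the members against 10.3% of the 13815 genes compared. None rose, against 8.20% of all genes. In LNCaP cells, 0 of the 10 fell and 0 rose, where 1.99% and 2.77% of 13739 genes did. The median log2 ratio of the members was -0.37 in PC3 and -0.16 in LNCaP, and over all genes it was -0.01 and 0.00. In each line 7 members lay below 0 and 3 above, where 50.7% of all genes compared in PC3 and 45.4% in LNCaP lay below 0. The 7 were not the same genes: E2F3 and E2F5 lay above 0 only in LNCaP, E2F7 and RB1 only in PC3, and RBL2 in both. E2F5 in LNCaP and E2F7 and RB1 in PC3 lay within 0.05 of 0. The E2F5 sign turned only without spots in bright local background (-0.01). E2F7 turned with spike-in probes as the scale (-0.05) and with the median over probes (-0.10), and RB1 with spike-in probes (-0.06) and without spots in bright background (-0.03).

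**Figure D1:**
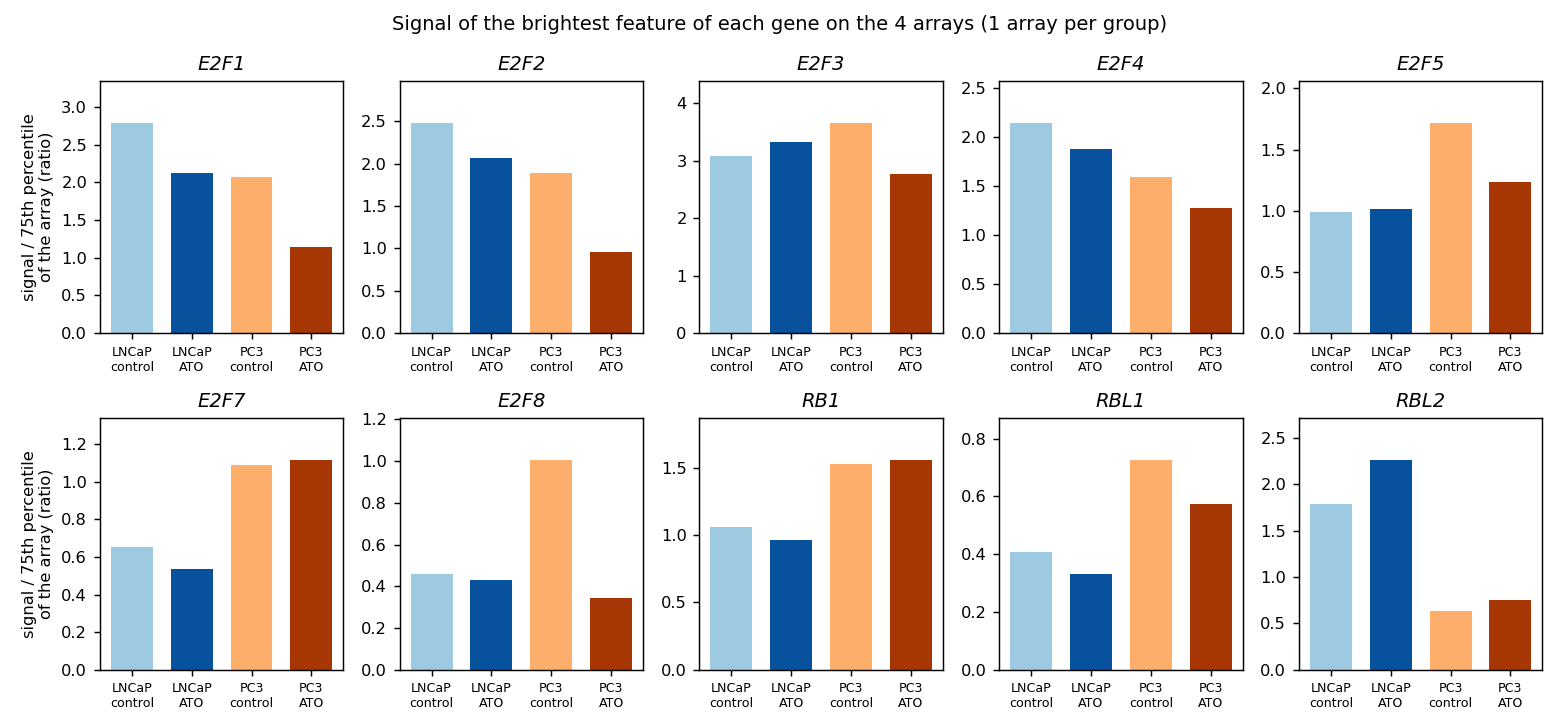
Signal of the brightest feature of each member on the 4 arrays, as a ratio to the 75th percentile of the array, with 1 bar per array and no error bar because each group had 1 array. Each panel has its own axis from 0, and levels are not to be compared between panels. PC3 ATO is the lowest bar for E2F1, E2F2, E2F3, E2F4 and E2F8. RBL2 is lower on both PC3 arrays than on both LNCaP arrays.

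**Figure D2:**
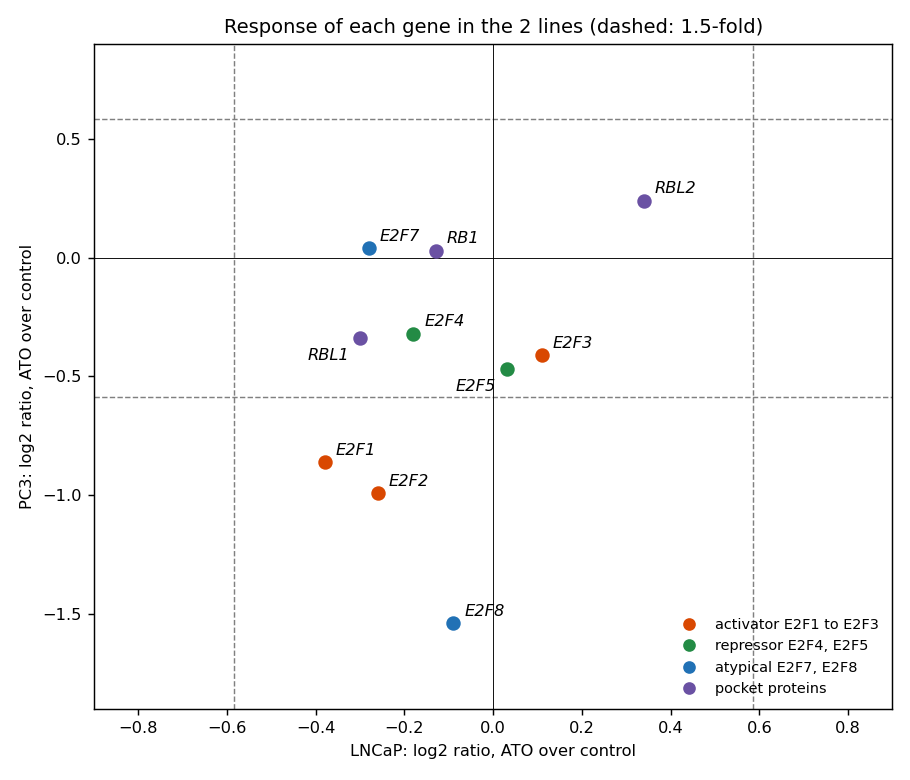
Log2 ratio of ATO over control in LNCaP (x axis) against PC3 (y axis) for the 10 members, coloured by class, with dashed lines at 1.5-fold. E2F1, E2F2 and E2F8 lie below the lower dashed line in PC3, and no member passes a dashed line in LNCaP.

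Among the activators, E2F1, which drives S phase entry and can also induce apoptosis genes, was the member measured most closely, because its feature (chr20:31727650-31727709 in hg18, the build of the array files) is spotted 10 times and its copies were tight. The mean signal was 1381 units in control and 1136 in ATO-treated LNCaP cells, and 1222 and 650 in PC3 cells in the same order. The copies ran from 1116 to 1392 units (median 1216, n = 10 spots) in PC3 control and from 582 to 701 (median 648, n = 10 spots) in PC3 ATO, so the copies did not overlap. The log2 ratio was -0.86 with a standard error over copies of 0.041. In LNCaP the copies ran from 1285 to 1473 units (median 1406, n = 9 spots) in the control and from 1030 to 1239 (median 1165, n = 9 spots) after ATO. These did not overlap either, but the log2 ratio of -0.38 (standard error over copies 0.042) stayed under 1.5-fold. Copies on 1 array share 1 labelled RNA, so these errors are technical.

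The LNCaP value of E2F1 depended on 2 spots that the scanner software had called outliers. One copy on the LNCaP control array read 2072 units and another on the LNCaP ATO array 39.6 units. With both kept, the ratio was -0.93 and E2F1 counted as a gene that fell in LNCaP. Of the 10 copies, 4 lay in bright local background on the LNCaP ATO array, and without spots in bright background the ratio was -0.45 in LNCaP and -0.88 in PC3. Of the 12513 genes measured on both PC3 arrays, 367 (2.93%) lay at or below E2F1.

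**Figure D3:**
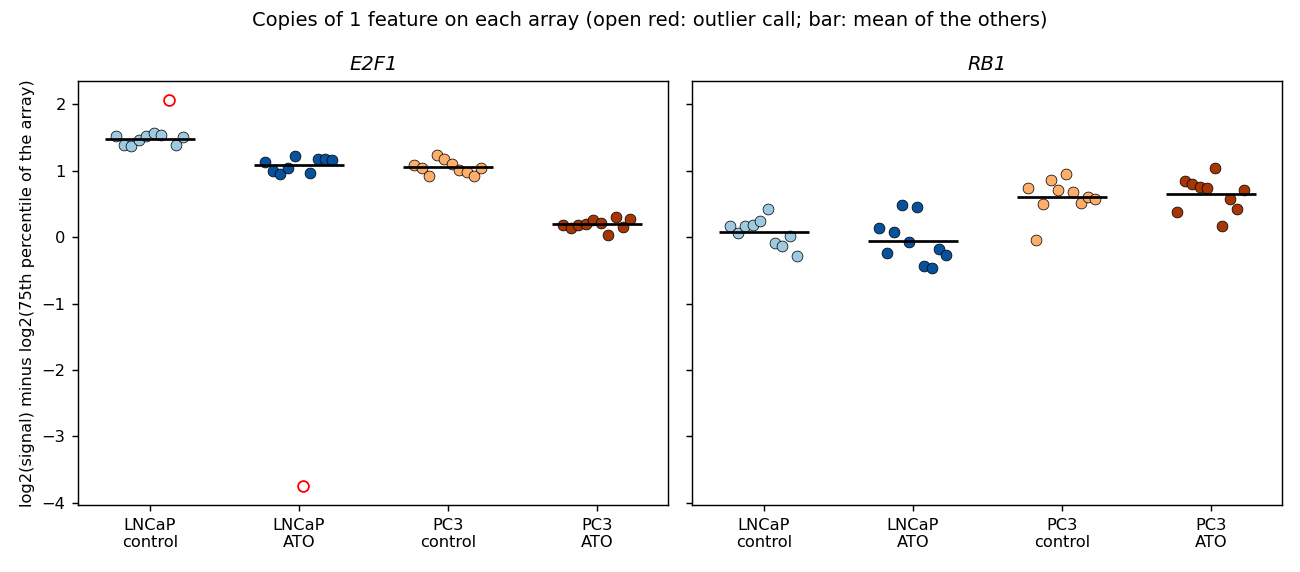
Scaled log2 signal of each of the 10 copies of the E2F1 and RB1 features on the 4 arrays, with filled points for copies used, open red points for copies called outliers and a bar at the mean of those used. The E2F1 copies of PC3 ATO lie below all PC3 control copies, whereas the RB1 copies of ATO and control overlap in both lines.

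E2F2, the second activator, was measured by 1 spot (chr1:23705520-23705579, hg18). It read 1235 units without and 1105 with ATO in LNCaP cells, and 1114 without and 543 with ATO in PC3 cells. PC3 ATO stood below the other arrays by more than those differed among themselves. The log2 ratio was -0.99 in PC3, with 225 genes at or below it, and -0.26 in LNCaP. The spot was not in bright local background on any of the 4 arrays.

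E2F3, the third activator, has 2 features, of which 1 (chr6:20598581-20598640, hg18) was not well above background on any array. The other (chr6:20601824-20601883) read 1525 units in control and 1763 in ATO-treated LNCaP cells, and 2156 and 1572 in PC3 cells in the same order. The ratio on the log2 scale was 0.11 for LNCaP and -0.41 (1.33-fold) for PC3, so E2F3 stayed under the threshold in both lines. The E2F3 spot on the PC3 ATO array had a local background 1.99 times the median of that array, and the part of this in the value was not tested. Within PC3 the E2F2 ratio was lower than the E2F3 ratio by 1.49-fold.

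Of the repressors, E2F4, the most abundant E2F of many tissues and the usual partner of RBL2 in resting cells, read 1063 units without and 1003 with ATO in LNCaP cells, and 938 without and 725 with ATO in PC3 cells. Its feature spans chr16:65789011-65789290 (hg18), 280 bases for a single probe. The log2 ratios of -0.18 in LNCaP and -0.32 in PC3 were both under 1.5-fold. E2F5 read 494 units in control and 540 in ATO-treated LNCaP cells, and 1007 and 703 in PC3 cells in the same order. PC3 was higher than LNCaP on both arrays, and the PC3 ratio of -0.47 (1.39-fold) was the nearest of those that stayed under the threshold, while E2F1 was the nearest of those that passed it. The LNCaP ratio of E2F5 was 0.03.

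The atypical factors E2F7 and E2F8, which often act as a pair and can dimerise with each other, had unlike ratios in PC3. E2F8 (chr11:19202251-19202310, hg18) read 227 units without and 229 with ATO in LNCaP cells, and 590 without and 196 with ATO in PC3 cells. PC3 control was the high array, and PC3 ATO lay below both LNCaP arrays. The log2 ratio in PC3 was -1.54, and only 45 of 12513 measured genes (0.360%) lay at or below it. In LNCaP it was -0.09, with a sign that turned under 2 alternatives (0.04 and 0.05). The difference between the 2 lines' ratios was -1.45, the widest of the 10 members, and has no test in this design. The E2F8 spot lay in the lower part of the array, with a local background of 1.65 times the median on LNCaP ATO, and of 1.12 and 0.961 times the median on the PC3 control and ATO arrays.

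E2F7 was read by 2 features. The brighter (chr12:75939651-75939710, hg18) gave 324 units in control and 286 in ATO-treated LNCaP cells, and 639 and 635 in PC3 cells in the same order, so that the PC3 arrays were level with each other and above both LNCaP arrays. LNCaP had a log2 ratio of -0.28 and PC3 one of 0.04. The dimmer (chr12:75941707-75941766) gave 41.5, 25.5, 75 and 61.3 units in that order and a PC3 ratio of -0.24. It was not well above background on the LNCaP ATO array, so only a bound exists for LNCaP, and it gives no difference. Within PC3, the ratio of E2F8 was lower than that of E2F7 by 2.99-fold.

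The pocket proteins stayed under 1.5-fold in both lines. RB1, the retinoblastoma gene itself (chr13:47953846-47953905, hg18, 10 spots), read 524 units without and 514 with ATO in LNCaP cells, and 898 without and 888 with ATO in PC3 cells. Its copies overlapped between ATO and control in both lines, at 386 to 744 units against 408 to 669 in LNCaP and at 637 to 1171 against 572 to 1134 in PC3. LNCaP had a log2 ratio of -0.13 and PC3 one of 0.03, each with a standard error over copies of 0.12. The copies of RB1 were more scattered than those of E2F1, with standard deviations of 0.21 to 0.34 on the log2 scale against 0.07 to 0.10. Over the 3 copies in the upper part of the array, the PC3 ratio of RB1 was 0.27.

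RBL1 and RBL2 lay on opposite sides of 0 in each line. RBL1, whose product binds E2F4 and is made mainly in cycling cells, read 202 units in control and 176 in ATO-treated LNCaP cells, and 426 and 326 in PC3 cells in the same order (chr20:35060611-35060670, hg18), with log2 ratios of -0.30 and -0.34. A second RBL1 feature (chr20:35069243-35069302), designed on another transcript of the gene, was not well above background on any array. RBL2, the pocket protein of resting cells, read 891 units without and 1211 with ATO in LNCaP cells, and 371 without and 424 with ATO in PC3 cells (chr16:52082347-52082406, hg18). Its log2 ratios were 0.34 in LNCaP and 0.24 in PC3. On the log2 scale the RBL1 ratio minus the RBL2 ratio was -0.64 in LNCaP and -0.58 in PC3. The RBL2 spot had a local background of 1.52 times the median on LNCaP ATO and 1.30 times on PC3 control, the spot lies near the lower edge, and the part of this in either ratio was not tested.

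The untreated lines also differed in these genes. E2F8 was 2.20-fold higher in PC3 control and RBL2 was 2.84-fold higher in LNCaP control. Each was 1 of the 10 members, or 10.0%, where 20.6% of 15237 genes were higher in PC3 and 19.0% higher in LNCaP, so neither share was above that of all genes. With spike-in probes as the scale this reading turned for PC3, where 5 of 10 members and 4569 of 15237 genes were higher. The mean difference of the lines over control and ATO arrays was not tested. Below 2-fold, RBL1 (1.78-fold), E2F5 (1.72-fold), E2F7 (1.67-fold) and RB1 (1.45-fold) were higher in PC3 control, with RB1 copies that overlapped between the lines. E2F1 (-0.42), E2F4 (-0.42) and E2F2 (-0.39) lay on the LNCaP side by log2 difference, and E2F3 (0.26) on the PC3 side. Scaling decided these last 4 signs: with spike-in probes as the scale E2F1, E2F2 and E2F4 came to between 0.07 and 0.10, and with the 50th percentile E2F3 came to -0.19. The RBL2 difference was between -1.95 and -1.02 and that of E2F8 between 0.69 and 1.62 over the alternatives, so E2F8 did not reach 2-fold with the 50th percentile.

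The test that was fitted, the mean effect of ATO over both lines in limma with cell line as a block and 1 residual degree of freedom, called 0 of 11902 genes (0%) at an adjusted p under 0.05. At an unadjusted p under 0.05 it took 532 genes (4.47%) and 1 of the 10 members, E2F1, with a mean log2 ratio of -0.62 ± 0.18 (SE), an unadjusted limma p of 0.0315 and an adjusted limma p of 0.762. E2F1 was lower after ATO in 2 of 2 lines. E2F2 had the same mean, -0.62 ± 0.23 (SE), with an adjusted limma p of 0.762, and E2F8 had -0.81 ± 0.41 (SE), also with an adjusted limma p of 0.762. The error of E2F8 was the widest of the members because its ratios in the lines were so far apart. The adjusted limma p of the other 7 members was between 0.762 and 0.926. These p-values are for the mean of both lines and do not bear on PC3 alone.

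Around the family, 6 lists of genes of the same pathway were read in the same way, each by its counts at 1.5-fold. Of the DNA-binding partners, E2F6, the MuvB core and the MYB proteins that work with it, 10 of 11 genes were measured, and 2 fell in PC3, against 10.3% of all genes, while none changed in LNCaP (medians -0.38 and -0.05). The 2 were TFDP1 (-1.22, with a second feature at -0.56), which encodes the DP1 partner that the classical E2F factors need to bind DNA, and MYBL1 (-1.40), a MYB factor. The other DP gene measured, TFDP2, was at -0.26, and E2F6, a repressor that works without pocket proteins, at -0.39. Of the MuvB genes in PC3, LIN9 was at -0.42, LIN52 at -0.37, LIN54 at -0.40, RBBP4 at -0.33 and LIN37 at 0.51. MYBL2, the MYB partner of MuvB in cycling cells, was at -0.36. TFDP3 was not well above background on any array. Of the corepressors that RB1 brings to promoters, 10 of 11 were measured and 1 fell in PC3, a share near that of all genes, the histone methyltransferase SUV39H1 (-0.65, with a second feature at -0.54), with medians of -0.20 in PC3 and -0.01 in LNCaP. The lowest after it were RBBP8 and HDAC2 (both -0.23), and the highest were HDAC1 (0.41), SIN3B (0.26) and ARID4A (0.17).

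Upstream of the pocket proteins, 6 of the 8 measured genes among 9 cyclins, kinases and their activator fell in PC3 and 0 of 7 in LNCaP (medians -0.83 and -0.16), where 10.3% and 1.99% of all genes did. Those that fell were CCNE2 (-1.36), CCNE1 (-0.91) and their kinase CDK2 (-0.67), the D-cyclin kinases CDK6 (-0.91) and CDK4 (-0.76), and CDC25A (-1.36), the phosphatase that activates CDK2. The D cyclins CCND1 (-0.58, 1.49-fold) and CCND3 (-0.42) stayed under the threshold in PC3. CCND2 was not well above background on any array, nor CDK6 on either LNCaP array. The CDK inhibitors ran the other way in PC3, where 4 of 7 rose and none fell (median 0.59), against 8.20% and 10.3% of all genes: CDKN2B (2.39, p15), CDKN1A (1.31, p21), CDKN1C (1.15, p57) and CDKN2D (0.59, p19). CDKN1B (0.35, p27), CDKN2A (0.28) and CDKN2C (-0.47, p18) did not reach 1.5-fold. In LNCaP none of the 7 passed it (median 0.00), where 2.77% of all genes rose and 1.99% fell. The LNCaP value of CDKN2B is a bound of 0.00 and gives no difference. It read 30.9 units in control and 20.0 after ATO, the latter not well above background. That bound is also the median of the 7.

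Downstream, 28 of the 35 classical G1/S targets of E2F with a PC3 value fell, where 10.3% of all genes did, and 0 rose. Of these values, 2 are bounds. All 35 lay below 0, with a median of -0.87, where 50.7% of all genes compared lay below 0. In LNCaP 1 of 36 fell, the replication factor MCM10 (-0.64), a share near the 1.99% of all genes that fell. However, 35 of the 36 lay below 0 (2 of them as bounds), with a median of -0.31, where 45.4% of all genes compared lay below 0. The lowest in PC3 among those measured on both arrays were CDCA7 (-1.98), DTL (-1.58), a ubiquitin ligase subunit of S phase, and ORC1 (-1.52), an origin recognition protein. Among the highest were FOXM1 (-0.32) and TK1 (-0.46). Of the apoptotic genes known as E2F1 targets, 4 of 7 rose in PC3 and 0 fell, where 8.20% of all genes rose and 10.3% fell. Those that rose included BBC3 (2.21, PUMA), PMAIP1 (0.91, NOXA) and APAF1 (0.69), and the lowest were BCL2L11 (-0.29) and SIVA1 (-0.26). Their median of 0.64 came to -0.11 over the 5 members left without spots in bright background. In LNCaP 1 of 6 rose, PMAIP1 (0.64), and 1 fell, BCL2L11, the BIM gene (-0.79), around a median of -0.02. Of all genes in LNCaP, 2.77% rose and 1.99% fell. In bulk RNA, fewer cells in S phase and less of a transcript per cell cannot be told apart for any of these genes or for the members.

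**Figure D4:**
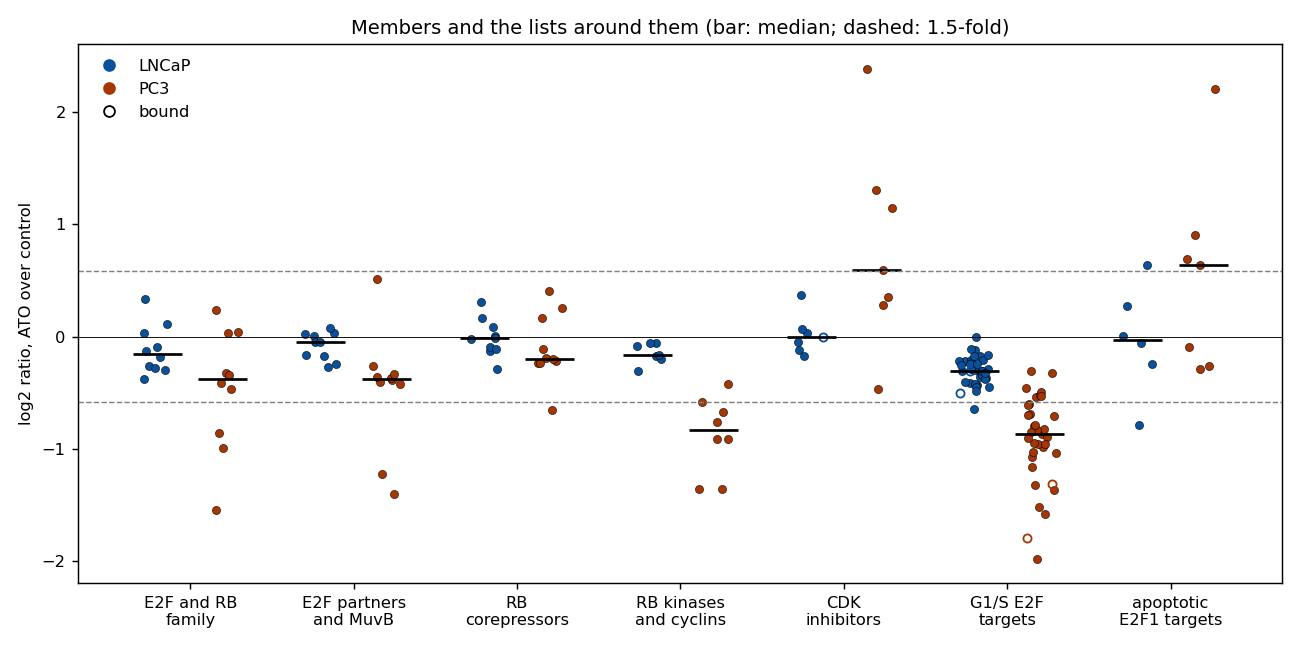
Log2 ratio of ATO over control for the 10 members and for the measured genes of 6 lists around them, LNCaP in blue and PC3 in brown, with a bar at the median, open points for bounds and dashed lines at 1.5-fold. In PC3 the G1/S targets (median -0.87) and the RB kinases and cyclins (median -0.83) lie lower than the members (median -0.37), and the CDK inhibitors (median 0.59) lie above 0.

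Set against the promoters printed at the start, the 4 members with an E2F match had PC3 ratios from -0.99 (E2F2) to -0.34 (RBL1), with E2F1 at -0.86 and E2F3 at -0.41. The 4 with a window but no match had ratios from -0.32 (E2F4) to 0.24 (RBL2), with E2F7 at 0.04 and RB1 at 0.03. RBL1 and E2F4, the neighbours of the groups, differ by less than the 0.13 spread of a single ratio. The groups overlapped with quantile normalization, where E2F4 (-0.36) lay below RBL1 (-0.32), and met with normexp background correction, where E2F3 and E2F4 were both at -0.23. E2F8, the member that fell most, has no window here and belongs to neither group. In LNCaP the groups overlapped, at -0.38 to 0.11 with a match and -0.28 to 0.34 without. Over all genes, the 476 with a match and a PC3 ratio had a median of -0.10, and 14.1% fell and 4.62% rose. Of the 7954 without a match, 9.25% fell and 8.31% rose, around a median of 0.00. In LNCaP the medians were -0.03 over 470 genes and 0.00 over 7759, and 2.34% against 1.68% fell. These are descriptions of 1 array per group with no test.

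**Figure D5:**
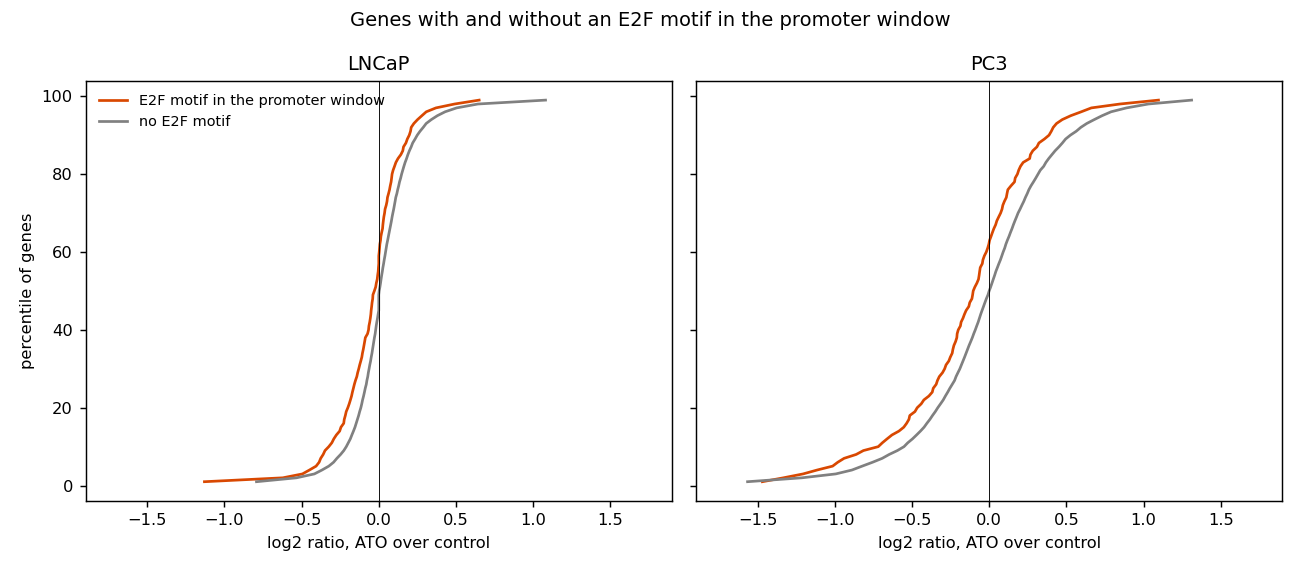
Percentile of genes (y axis) against log2 ratio of ATO over control (x axis), for genes with and without an E2F match in a promoter window, in LNCaP and in PC3. The curve of genes with a match lies to the left of the other in PC3 (medians -0.10 and 0.00), except at percentile 1 (-1.47 with a match, -1.57 without). In LNCaP the curves are closer together (medians -0.03 and 0.00).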

How the data were processed

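Total RNA of 4 samples was labelled and hybridised to 1-colour Agilent arrays. Per the file headers, the authors used Agilent Feature Extraction 9.5.3.1 with design 026652 and hg18 positions, and the deposited intensity values are background-subtracted and corrected for a trend over the array. The deposited table holds a ratio, which within 2% equalled the intensity divided by its array's 75th percentile for 99.2% to 99.9% of its values above 1, with a lowest value of 0.03. From the intensities, spots called outliers were left out, log2 values were averaged over spots and scaled by that percentile. A gene took its brightest feature, called well above background if more than 50% of its spots were. Where 1 of 2 arrays was dim, a bound was given against the lowest level well above background on that array. Groups came from the labels.

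Treatment over both lines was tested with limma 3.58.1 in R 4.3.3 (Benjamini-Hochberg, all genes). Other steps used Python 3.11.15, NumPy 2.4.6, pandas 2.3.3 and matplotlib 3.10.9, and scripts were tested on simulated data. Alternatives were scaling by the 50th percentile, 10 spike-in probes or quantiles, normexp (offset 50), outliers kept, no dim filter, the median over probes, spots in bright background left out, the deposited table, stricter folds and, for limma, a trend or no block. A further one, the upper copies of E2F1 and RB1 alone, was chosen after seeing the data. Members and lists were chosen with earlier results of these data known. Named genes were all members, every measured gene among partners, kinases and inhibitors, the 3 highest and 3 lowest PC3 ratios of the other lists, and line markers; genes past the threshold were named beside small counts. The values of some genes under this rule are not reported here. Of 27224 names, 13102 had a RefSeq promoter window. With 1 array per group, their number limits the precision. Exon annotation of hg18 was not used here.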

Additional observations from a re-analysis of the deposited data

How the results depend on the processing

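The fall of E2F1, E2F2 and E2F8 in PC3 kept its direction and stayed past 1.5-fold in each alternative that gave a value, over ranges of -0.95 to -0.67, -1.08 to -0.79 and -1.63 to -1.35. At a 2-fold threshold only 1 of them, E2F8, was counted. Without spots in bright background E2F3, E2F8 and RBL2 have no value, since a spot had to pass on all 4 arrays (that of E2F8 was bright only on LNCaP ATO), which leaves 7 members, and their LNCaP median was then -0.30. With outlier spots kept, 1 member (E2F1) fell in LNCaP. Between the controls, no member was higher in LNCaP at 4-fold or without bright background (0 in each), and 0 were higher in PC3 under these and with the 50th percentile, against 5 with spike-in probes. Without bright background the members past 2-fold, E2F8 and RBL2, have no value, so the counts of 0 there follow from their absence. The median over the controls was -0.05 at the 50th percentile and 0.88 by spike-in probes. Of 265 alternative values of single members, 225 moved by less than 0.13 and 40 by more.

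The 50th percentile moved the median of all genes in PC3 to 0.19, and of the control comparison to -0.49, where spike-in probes moved it to 0.36 (LNCaP to 0.12). The split of genes that rose and fell in PC3, 1133 and 1419 as reported, was 2154 and 910 at the 50th percentile and 828 and 1806 by spike-in probes. In LNCaP it was 380 and 273, and 557 and 190 with spike-in probes, 164 and 190 with normexp, 75 and 186 without bright background, and 10381 and 1303 without the dim filter. Between the controls it was 3139 and 2897, with 2257 and 4737 at the 50th percentile and 4569 and 1539 by spike-in probes. With the 50th percentile the PC3 median of the members was -0.18, that of partners -0.19, of corepressors 0.00, of kinases and cyclins -0.64, of CDK inhibitors 0.79, of G1/S targets -0.68 and of apoptotic targets 0.84. The corepressor median was -0.06 with normexp, and that of apoptotic targets 0.32 without the dim filter and -0.11 without bright background. By limma's unadjusted p, 3 members passed with the 50th percentile, 2 each without bright background, with a trend, with the median over probes and with normexp, and 0 without the block or the dim filter. With the median over probes the 2 were E2F1 and RBL1. That RBL1 value took in its second feature, which was not well above background on any array. After adjustment no member passed in any of these alternatives, while 5 genes did at the 50th percentile and 2 by spike-in probes. Beyond what each construction implies, the cause of these shifts was not tested. The arrays of a line are paired through the cell line block of limma. Replicate numbers pair nothing, with 1 array per group.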
